A study of Mus musculus with 9 samples.

Results

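The genes described here are the neighbours of the T cell receptor alpha locus, the genes of mouse chromosome 14 that lie on either side of the receptor segments. They were measured in peptide-activated CD8 T cells of 3 clones that differ in their receptor. The list holds 54 genes, of which 52 had a row in the table of 24060 genes and 47 were among the 11330 genes tested. The list holds no receptor segment. The list was chosen from the genes around the locus with the measured differences between R7-III and R7-I already known for some of them, so that contrast is given as a description, with no test. The way these genes were taken from the others nearby was not given in the sources used here, and the region within 5 Mb of the locus holds another 56 tested genes, 1 of them the row of a receptor segment inside the array.

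The alpha chain of the T cell receptor is encoded by a long array of variable and joining segments before a constant region, with the segments of the delta chain inside the array. Developing T cells in the thymus cut and join these segments, and each mature clone keeps its own joined copy. Housekeeping genes lie close to both ends of the array, and a line that inherits a rearranged receptor through the germline inherits it together with the DNA on either side.

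R7-I, R7-II and R7-III are transnuclear mouse lines, made by transfer of the nucleus of a single CD8 T cell, and each carries the rearranged receptor of that cell in the endogenous loci on a Rag2-proficient BALB/c background. All 3 receptors bind the same ROP7 peptide of Toxoplasma gondii on H-2Ld. Measured with purified proteins, R7-I bound most strongly, R7-III less and R7-II least. Measured at cell membranes, the paper gives R7-I and R7-III similar affinities and R7-II a lower one. Splenocytes were kept overnight with 10 µM of the peptide and 10 ng/ml of IL-2, and live cells positive for CD3, CD8 and the ROP7 tetramer were sorted to a purity of 90 to 95%. Each clone has 3 libraries of poly(A) RNA, given as biological replicates, while the age and sex of the mice were not given in the sources used here. Every clone is a line from 1 founder nucleus, so the receptor and any other inherited difference between the lines cannot be told apart.

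The deposited values are TPM, a share of all transcripts that corrects for gene length and adds up to the same total in every library. The paper gives a typical number of reads per sample, but TPM does not keep the count behind a value. No counting interval is therefore given, and an exact 0 is reported as listed at 0. Differences are between means of log2(TPM + 1), a scale that understates the change of genes with low TPM. A difference was called at an adjusted p of 0.01 in limma with all 9 libraries in 1 fit. These p-values rest on the spread between libraries within a clone, pooled over the 3 clones and drawn towards the spread of other genes. Values after ± are standard errors of a difference or standard deviations of a level over 3 libraries.

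The label of CD8 T cells was checked against marker genes. Cd8a, which encodes a chain of the coreceptor, was at 349, 339 and 341 TPM in the R7-I libraries, 393, 452 and 444 in R7-II and 372, 378 and 380.0 in R7-III. Cd4 stayed at or below 1 TPM in every library, and Klra8, an NK cell receptor gene, was listed at 0 in all 9. The CD8 T cell markers were present in each library, with all 7 of 7 called higher in R7-II against each of the others and a mean summed level of 1924 TPM in R7-I, 2793 in R7-II and 2106 in R7-III, with Lck the most abundant.

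Markers of other cells were higher in the R7-II libraries. The 8 B cell markers summed to 11.5, 15.9 and 8.58 TPM in R7-I libraries, 73.6, 35.3 and 56.2 TPM in R7-II and 5.1, 7.57 and 8.01 TPM in R7-III, all 8 called higher in R7-II against each of the others, with Cd79b the most abundant. The 8 MHC class II genes summed to 40.0, 55.5 and 36.5 TPM in R7-I libraries, 196.1, 129.3 and 194.5 TPM in R7-II and 27.4, 31.0 and 28.2 TPM in R7-III, again all 8 called higher, with Cd74 the most abundant. Of 10 myeloid markers 8 were tested and 7 were called higher in both comparisons, with sums of 4.31, 5.77 and 5.89 TPM in R7-I libraries, 46.7, 25.3 and 85.0 TPM in R7-II and 6.81, 5.68 and 7.64 TPM in R7-III. Lyz2 was the most abundant of them in R7-II and Cd68 in R7-I and R7-III. R7-II thus stood above both clones in the TPM sums of each of these lists, with no overlap between its libraries and theirs. With median-of-ratios scaling 7 B cell, 6 MHC class II, 7 myeloid and 6 CD8 T cell markers were higher against R7-I and 8, 8, 6 and 5 against R7-III. With quantile normalization it was 6, 6, 3 and 7 against R7-I and 8, 7, 6 and 7 against R7-III.

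Proliferation genes went the other way. Their 16 members summed to 2069, 2181 and 2133 TPM in R7-I libraries, 1433, 1599 and 1527 TPM in R7-II and 2676, 2670 and 2790 TPM in R7-III, with 13 called lower in R7-II against R7-I, 14 against R7-III and Pcna the most abundant. The 6 erythroid genes, with Hba-a2 the most abundant in R7-I and R7-II and Hba-a1 in R7-III, had 4 tested and 0 called by limma (at an unadjusted p under 0.05, 2 passed against R7-I and 1 passed against R7-III; with quantile normalization 1 was called lower in each comparison), and their sums varied within each clone, at 30.4, 73.3 and 22.1 TPM in R7-I libraries, 1.3, 4.26 and 15.1 TPM in R7-II and 25.5, 22.2 and 8.99 TPM in R7-III. Of 3 CD4 T cell genes, with Cd40lg the most abundant, 1 was tested and was called lower in R7-II against R7-III, at mean sums of 3.21, 3.90 and 6.38 TPM in R7-I, R7-II and R7-III. Cd4 and Zbtb7b were not tested and had their highest mean in R7-II. In the same order of clones Cd4 averaged 0.3, 0.98 and 0.377 TPM and Zbtb7b 0.26, 0.743 and 0.593 TPM. No NK cell gene of the 3 was tested, and the most abundant of them was Ncr1 in R7-I and Klrb1c in R7-II and R7-III. The CD8 T cell, B cell, MHC class II, myeloid and proliferation lists thus differed in R7-II against both R7-I and R7-III. Their part in the differences of R7-II described here was not tested.

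The locus spans chr14:52427967-54224198 in GRCm38.p6, the build also called mm10. Of the 47 tested neighbours 18 lie on the side of lower coordinates and 29 on the side of higher coordinates. The nearest on the low side were Sall2 at 99.3 kb from the array, Mettl3 at 119.2 kb and Tox4 at 132.5 kb. Dad1, at 11.3 kb, was the nearest on the high side, before Abhd4 at 29.9 kb and Oxa1l at 136.6 kb. Tmem260 was the farthest member, 3.87 Mb away on the low side.

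The levels of these genes ranged widely. The median of the mean TPM was 47.5 over the 47 tested neighbours and 22.3 over all genes tested. Of the 52 neighbours with a row 11 had a mean above 100 TPM, 22 a mean from 10 to 100 TPM, 12 a mean from 1 to 10 TPM and 7 a mean below 1 TPM. The 3 with the highest mean level were Dad1 at 457.5 TPM, Hnrnpc at 426.4 TPM and Nedd8 at 425.9 TPM. Within a clone the median standard deviation of log2(TPM + 1) was 0.06 over the neighbours and 0.08 over all genes tested, and between the clone means it was 0.17 and 0.18.

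Between R7-III and R7-I, the contrast that the choice of these genes used, most neighbours lay close together and a few lay far apart. More than 2-fold separated 7 of the 47. Higher in R7-III were 4 (8.51% of those tested, where 0.962% of all genes tested passed in that direction), namely Ppp1r3e, Bcl2l2, Sall2 and Tmem260. Lower in R7-III were 3 (6.38%, where 0.282% of all genes passed), namely Ccnb1ip1, Pnp2 and Myh7. Nothing is read from these shares, since the values of this contrast were known when the list was made.

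Closest to the 2-fold threshold, which is 1 on the log2 scale, were Tmem260 at 1.01 and Sall2 at 1.17 just inside and Haus4 at 0.93 and Abhd4 at 0.93 just outside. The next were Homez at 0.48 and Osgep at 0.47, which leaves a gap below Abhd4. Without R7-I replicate 2 Haus4 and Abhd4 both passed the threshold, which made 6 members higher, and without R7-I replicate 3 or R7-III replicate 3 Tmem260 missed it, which made 3. The scale moved these counts as well. With a pseudocount of 5 in place of 1 the members past the threshold were Ppp1r3e, higher, and Ccnb1ip1, lower, and with 0.1 Abhd4 passed too, which made 5 higher and 3 lower. As a ratio of mean TPM, R7-III to R7-I, Abhd4 was at 2.43. With either scaling Tmem260 missed the threshold. The median size of the difference was 0.12 over the 47 neighbours and 0.10 over all genes tested.

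**Figure D1:**
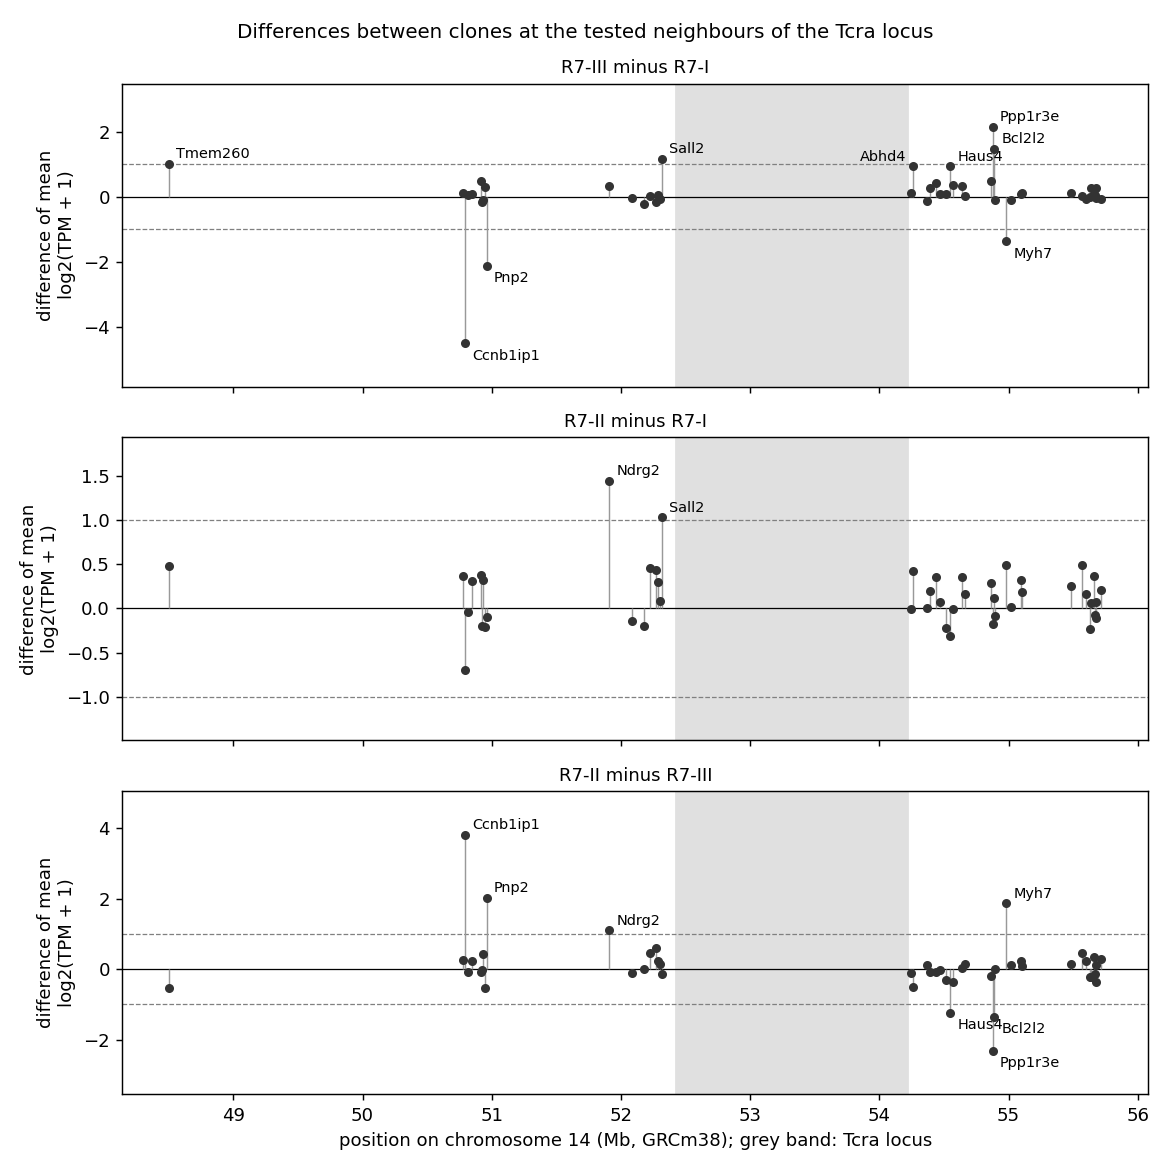
Difference of mean log2(TPM + 1) between pairs of clones for the 47 tested neighbours (points) against position on chromosome 14 in Mb, with the locus as a grey band and dashed lines at 2-fold, and the genes past 0.9 in size named. In R7-III minus R7-I, large differences stand singly or in pairs among genes near 0, such as Ccnb1ip1 at -4.51 beside Parp2 at 0.04.

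In the comparisons of R7-II, the neighbours were called about as often as other genes. Above R7-I in R7-II were 17 of 47 (36.2%, where 40.6% of all genes tested were called), and 8 were lower (17.0%, where 15.5% were called). Against R7-III, 16 were higher (34.0%, where 35.6% were called) and 11 were lower (23.4%, where 18.0% were called). The contrast of R7-II with the mean of both other clones is orthogonal to R7-III against R7-I, and there 20 were higher (42.6%, where 41.8% were called) and 10 were lower (21.3%, where 18.6% were called). Where R7-III and R7-I lie apart, that contrast gives the distance of R7-II from their midpoint and not a difference from either clone, so it is not given for single members. With TPM these shares are near those of all genes, and no share here is read as a result about the neighbours.

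Calls against both clones in 1 direction are counted next, and their distance from the shares over all genes was not tested. With median-of-ratios scaling 8.51% were higher than in both, where 20.5% of all genes were, and 25.5% were lower, where 23.5% were. The counts that follow are those with TPM. Above both other clones in R7-II were 10 (21.3%, where 31.9% of all genes were called), and 5 were lower than in both (10.6%, where 12.8% were called). The 2 comparisons share the R7-II libraries. The 10 higher were Ndrg2, Dcaf11, Chd8, Rab2b, Mdp1, Tmem55b, Ttc5, Tox4, Rabggta and Acin1, and the 5 lower were Haus4, Prmt5, Ipo4, Pnp and Hnrnpc. Because the cells were measured in bulk, fewer cells with a transcript and less of it per cell cannot be told apart.

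How libraries were scaled changed these counts. With median-of-ratios scaling 14.9% of the neighbours were higher than in R7-I, where 25.2% of all genes were, and 40.4% were lower than in R7-III, where 28.2% were. With quantile normalization it was 17.0%, where 22.6% were, and 31.9%, where 25.1% were. With TPM, the median difference over all genes was 0.17 for R7-II against R7-I and 0.12 against R7-III, beside 0.16 and 0.02 over the neighbours. Scaling by median-of-ratios factors brought the medians over all genes to within 0.01 of 0 and those over the neighbours to -0.02 and -0.12. With quantile normalization the medians were -0.02 and 0.00 over all genes and 0.00 and -0.01 over the neighbours. Of the neighbours called, 68.0% were above R7-I in R7-II with TPM and 31.8% after that scaling, while over all genes the share was 72.4% and then 46.2%. Against R7-III it was 59.3% and then 34.5% over the neighbours, and 66.4% and then 47.0% over all genes. Against the mean of both clones 66.7% of the called neighbours were higher and then 42.9%, beside 69.1% and then 47.0% of all genes called. With quantile normalization the 3 shares were 42.1%, 42.3% and 52.2% over the neighbours and 45.9%, 49.3% and 47.3% over all genes.

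Of the 10 neighbours higher than in both clones, 4 were still called after median-of-ratios scaling: Ndrg2, Dcaf11, Chd8 and Mdp1. With quantile normalization 6 were, these 4 and Tox4 and Acin1. All 5 that were lower than in both clones were called again with median-of-ratios scaling, beside another 7: Apex1, Dad1, Nedd8, Pabpn1, Parp2, Supt16 and Tinf2. With quantile normalization 4 of the 5 were called again and Hnrnpc was not, and Parp2, Ppp1r3e and Tinf2 joined them. The higher calls of Ttc5, Rab2b, Tmem55b and Rabggta were lost with either scaling in at least 1 of the 2 comparisons.

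Calls near the threshold changed when a library was left out. Of the 5 lower, Prmt5, Ipo4 and Pnp were called in all 9 such fits, and no other of the 5 was called without R7-I replicate 1 or 2, R7-II replicate 2 or any single R7-III library. Haus4 was also called without R7-I replicate 3 or R7-II replicate 3, and Hnrnpc without R7-II replicate 1. Without R7-II replicate 2, Nedd8 was called lower than in both clones. Haus4 against R7-I had an adjusted p of 0.00969 in limma and lost its call in 7 of 9 fits, those without R7-I replicate 1 or 2, R7-II replicate 1 or 2 or any R7-III library, with an adjusted p from 0.0152 to 0.0409. Hnrnpc against R7-III, with an adjusted p of 0.00908 in limma, lost its call without any library other than R7-II replicate 1, with an adjusted p from 0.0102 to 0.0358. Acin1 against R7-III lost its call in 7 of 9 fits, those without any R7-I library, R7-II replicate 1 or 3 or R7-III replicate 1 or 2, with an adjusted p in limma from 0.0116 to 0.0339. Against R7-I it lost its call in 5 of 9 fits, those without any R7-I library or R7-II replicate 1 or 3, with an adjusted p from 0.0142 to 0.0256.

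The neighbours that act in DNA repair, at telomeres and on chromatin included 9 tested genes. Sall2, a zinc finger transcription factor and the member nearest the array on the low side, was at 1.74, 1.58 and 1.65 TPM in the R7-I libraries, 4.65, 4.36 and 4.24 TPM in R7-II and 4.97, 5.19 and 4.75 TPM in R7-III. R7-II and R7-III lay close together and well above R7-I, with no overlap. The difference was 1.17 between R7-III and R7-I and 1.03 ± 0.08 between R7-II and R7-I. With quantile normalization the latter was 0.68, and Sall2 was called lower than in R7-III, by -0.34 (limma, adjusted p = 0.00416).

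Chd8, a chromodomain helicase that remodels nucleosomes, was at 45.6, 45.0 and 43.7 TPM in the R7-I libraries, 66.2, 56.4 and 62.6 TPM in R7-II and 44.0, 43.7 and 47.4 TPM in R7-III. Every R7-II library was above the other 6, which overlapped each other. R7-II lay 0.45 ± 0.06 above R7-I and 0.44 ± 0.06 above R7-III (limma, adjusted p = 5.05e-05 and 6.12e-05). Tox4, an HMG box protein, was at 64.5, 64.0 and 68.8 TPM in the R7-I libraries, 85.3, 77.0 and 81.6 TPM in R7-II and 67.8, 67.1 and 70.9 TPM in R7-III. It too was higher in each R7-II library than in any other, by 0.30 ± 0.05 over R7-I and 0.24 ± 0.05 over R7-III (limma, adjusted p = 0.000182 and 0.000919), and both calls were lost with median-of-ratios scaling.

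Parp2, a poly(ADP-ribose) polymerase that responds to DNA strand breaks, was at 65.3, 65.1 and 62.2 TPM in the R7-I libraries, 62.5, 62.4 and 62.9 TPM in R7-II and 64.5, 64.3 and 69.4 TPM in R7-III. Its libraries overlapped between R7-I and both other clones, and it was not called in R7-II. It was called lower with median-of-ratios scaling, by -0.22 and -0.21 in the comparisons with R7-I and R7-III, and with quantile normalization, by -0.16 and -0.17 (limma, adjusted p = 0.00476 and 0.00298). Apex1, the endonuclease that cuts at abasic sites in base excision repair, was at 268, 269 and 270.4 TPM in the R7-I libraries, 236, 231 and 239 TPM in R7-II and 241, 249.7 and 233 TPM in R7-III. R7-I was higher than both other clones, which overlapped, and R7-II differed from it by -0.19 ± 0.03 (limma, adjusted p = 0.00021). Supt16, the large subunit of the FACT histone chaperone, was at 183, 182 and 179 TPM in the R7-I libraries, 161, 153 and 158 TPM in R7-II and 156, 154 and 159 TPM in R7-III. R7-I was again higher than both other clones, which overlapped, with R7-II -0.20 ± 0.03 from R7-I (limma, adjusted p = 0.000114).

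With TPM, both telomere genes were called in R7-II, each against a different clone. Tinf2, a shelterin component, averaged 56.7 ± 1.51 TPM in R7-I, 52.8 ± 3.47 in R7-II and 68.4 ± 3.25 in R7-III, with R7-II -0.37 ± 0.05 from R7-III (limma, adjusted p = 0.000124). It was also called lower than in R7-I with either scaling, by -0.29 and -0.25. Tep1, a protein associated with telomerase and with vaults, averaged 6.86 ± 0.728 TPM in R7-I, 8.74 ± 0.706 in R7-II and 7.23 ± 0.289 in R7-III. Its call against R7-I (limma, adjusted p = 0.00804) was lost in 7 of 9 fits, those without any library other than R7-I replicate 2 or R7-II replicate 2, with an adjusted p from 0.012 to 0.0348. It was also lost with either scaling, at a difference of 0.14 with median-of-ratios scaling and -0.01 with quantile normalization, with the replicate number as a block, with no filter and with only the clones compared. Homez, a homeobox gene, averaged 1.82, 2.45 and 2.92 TPM in R7-I, R7-II and R7-III and was not called in either comparison of R7-II, though it passed against R7-I without R7-II replicate 2 or without the trend (limma, adjusted p = 0.0092 and 0.00205) and was called lower than in R7-III with quantile normalization, by -0.36 (limma, adjusted p = 0.0032). Rec8, a cohesin of meiosis, was not tested and was listed at 0 in every R7-I and R7-III library and at 0.19, 0.15 and 0.06 TPM in R7-II. With no filter it was called higher in R7-II than in both clones.

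The 7 tested genes of RNA processing and translation had a median of the mean TPM of 189, beside 47.5 over the 47 neighbours, with Osgep the lowest at 34.5 TPM. Their median size of the difference was 0.14 for R7-II against R7-I and 0.12 against R7-III, beside 0.21 and 0.22 over the neighbours. Hnrnpc, which coats nascent transcripts in the nucleus, was at 455, 442 and 435 TPM in the R7-I libraries, 411, 394 and 403 TPM in R7-II and 424, 429 and 444 TPM in R7-III. R7-II was below the other clones without overlap, by differences of -0.14 ± 0.03 from R7-I and -0.10 ± 0.03 from R7-III. With quantile normalization the differences were -0.06 and -0.05 and neither was called (limma, adjusted p = 0.0549 and 0.13), and with median-of-ratios scaling they were -0.33 and -0.24. Prmt5, the methyltransferase that makes symmetric dimethylarginine on splicing proteins and histones, was at 191, 201 and 194 TPM in the R7-I libraries, 172, 163 and 166 TPM in R7-II and 203, 204 and 208 TPM in R7-III. All R7-II libraries were below the other 6, with differences of -0.22 ± 0.03 from R7-I and -0.30 ± 0.03 from R7-III (limma, adjusted p = 9.23e-05 and 1.35e-05).

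Mettl3, the catalytic subunit of the RNA adenosine methyltransferase, was at 61.3, 59.9 and 61.6 TPM in the R7-I libraries, 64.8, 63.3 and 65.9 TPM in R7-II and 56.3, 59.1 and 59.5 TPM in R7-III. R7-II was highest without overlap, but the differences were only 0.08 ± 0.04 and 0.15 ± 0.04 against R7-I and R7-III. The second was called (limma, adjusted p = 0.00395), and the call was lost with either scaling and without R7-II replicate 3, R7-III replicate 1 or R7-III replicate 2 (limma, adjusted p = 0.0169, 0.0224 and 0.0103). Osgep, an enzyme of tRNA modification, was at 27.1, 27.7 and 29.0 TPM in the R7-I libraries, 34.2, 36.8 and 38.9 TPM in R7-II and 40.9, 38.9 and 37.4 TPM in R7-III. R7-I was below both other clones, which overlapped, and R7-II lay 0.38 ± 0.06 above R7-I (limma, adjusted p = 0.000134). That call was lost with either scaling, and Osgep was then called lower than in R7-III, by -0.22 with median-of-ratios scaling and -0.23 with quantile normalization.

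Acin1, a splicing factor that is also cleaved in apoptosis, averaged 229.9 ± 2.49 TPM in R7-I, 258 ± 13.8 in R7-II and 231 ± 10.4 in R7-III, and its difference between R7-II and R7-I turned from 0.16 to -0.03 with median-of-ratios scaling. Pabpn1, the nuclear poly(A)-binding protein, averaged 342 ± 5.21, 324 ± 9.50 and 319.9 ± 6.49 TPM in the same order and was not called in R7-II, though with median-of-ratios scaling it was called lower than in both clones, by -0.27 and -0.12. Ngdn, a protein of ribosome assembly, averaged 124 ± 4.65, 126 ± 4.19 and 116 ± 1.93 TPM and was likewise not called, though it passed against R7-III without R7-II replicate 2 (limma, adjusted p = 0.00847) and was called lower than in R7-I with median-of-ratios scaling, by -0.17 (limma, adjusted p = 0.00259). Rbm23, an RNA-binding protein, had no row.

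The 5 genes of ubiquitin and protein control held the widest difference of the list. Ccnb1ip1, a RING-type ubiquitin ligase of cyclin B that also acts in meiotic crossing over, was at 24.9, 22.3 and 23.6 TPM in R7-I libraries, 14.1, 14.3 and 14.02 TPM in R7-II and 0.05, 0 and 0.19 TPM in R7-III, the second of these being listed at 0. R7-I was highest, R7-II lower and R7-III near 0, with no overlap among the 3 clones. The difference between R7-III and R7-I was -4.51, the lowest among all 11330 genes tested. R7-II differed from R7-I by -0.70 ± 0.08 and from R7-III by 3.81 ± 0.08, and the first was not called with a pseudocount of 0.1 (limma, adjusted p = 0.0453).

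The genes on either side of Ccnb1ip1 had no such order. Ttc5, a tetratricopeptide protein that acts with the acetyltransferase EP300 and lies 3.73 kb from it, was at 43.2, 45.4 and 42.9 TPM in the R7-I libraries, 57.4, 54.5 and 58.9 TPM in R7-II and 45.5, 49.5 and 48.2 TPM in R7-III. R7-II was highest without overlap, by 0.37 ± 0.05 over R7-I and 0.25 ± 0.05 over R7-III (limma, adjusted p = 4.29e-05 and 0.000715). The difference from R7-I to R7-III was 0.12 for Ttc5 and 0.04 for Parp2, the member on the other side, 12.2 kb away.

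Rpph1, the RNA component of RNase P, is not a member and lies between Ccnb1ip1 and Parp2 at chr14:50807447-50807771. It was the 1 other tested gene within 5 Mb of the locus that was past 2-fold in that contrast, with a difference of 3.52 between R7-III and R7-I. It was at 6.49, 8.78 and 8.33 TPM in the R7-I libraries, 7.29, 12.8 and 8.18 TPM in R7-II and 111, 83.3 and 108 TPM in R7-III. R7-III was high for Rpph1 and near 0 for Ccnb1ip1, and R7-I and R7-II overlapped for Rpph1. In the GENCODE transcripts the genes share 233 exon bases on the same strand, and 134 of the 220 stretches of 100 bases in Rpph1 (60.9%) and of the 1755 in Ccnb1ip1 (7.64%) occur in both. In RefSeq, whose genes the authors counted, Ccnb1ip1 ends at 50795728, 11.7 kb before Rpph1, and the genes do not overlap in the release used here. How reads from the shared stretch entered the deposited values was not tested. The libraries are of poly(A) RNA, and how well they capture the RNase P RNA was not tested either. These values are therefore not read as the level of that RNA in the cells.

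The remaining genes of this group differed less. Dcaf11, a substrate receptor of the CUL4 ubiquitin ligase, was at 48.5, 49.5 and 52.2 TPM in the R7-I libraries, 71.7, 69.5 and 70.2 TPM in R7-II and 48.7, 51.7 and 52.3 TPM in R7-III. Each R7-II library was above the other 6, which overlapped, by 0.49 ± 0.04 over R7-I and 0.46 ± 0.04 over R7-III (limma, adjusted p = 3.07e-06 and 4.45e-06). Nedd8, the ubiquitin-like modifier of cullins, was at 424, 434 and 426 TPM in the R7-I libraries, 389.6, 435 and 396 TPM in R7-II and 454, 448 and 427 TPM in R7-III. R7-II overlapped R7-I, and its replicate 2 also reached into the range of R7-III. Without that library Nedd8 was called lower in R7-II, by -0.12 against R7-I and -0.17 against R7-III (limma, adjusted p = 0.00536 and 0.000815), and with all libraries it was called lower with median-of-ratios scaling, by -0.26 in both comparisons. Rnf31, the catalytic subunit of the linear ubiquitin chain assembly complex, averaged 48.2 ± 1.33 TPM in R7-I, 54.1 ± 3.66 in R7-II and 46.2 ± 0.576 in R7-III and was called higher in R7-II against R7-III (limma, adjusted p = 0.00216), a call lost with either scaling, and against R7-I without R7-II replicate 2 (limma, adjusted p = 0.00128).

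Metabolic enzymes gave 8 tested genes, among them a pair of neighbouring paralogs that went opposite ways between R7-III and each of the other clones. Pnp, the purine nucleoside phosphorylase whose loss depletes T cells in people, was at 45.8, 49.2 and 45.8 TPM in the R7-I libraries, 39.8, 41.9 and 39.2 TPM in R7-II and 57.2, 58.4 and 59.4 TPM in R7-III. R7-III was highest and R7-II lowest, with no overlap among the 3 clones. R7-II differed by -0.21 ± 0.04 from R7-I and -0.52 ± 0.04 from R7-III (limma, adjusted p = 0.00117 and 2.29e-06). Pnp2, its paralog 2.73 kb further along, was at 5.19, 5.22 and 5.45 TPM in the R7-I libraries, 4.62, 4.50 and 5.56 TPM in R7-II and 0.35, 0.28 and 0.73 TPM in R7-III. R7-III was far below both other clones, which overlapped. R7-II differed by -0.10 ± 0.13 from R7-I, which was not called, and by 2.03 ± 0.13 from R7-III. With quantile normalization Pnp2 was called lower than in R7-I, by -0.45 (limma, adjusted p = 0.00489).

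The difference from R7-I to R7-III was 0.31 for Pnp and -2.13 for Pnp2. Of the 1488 stretches of 100 bases in Pnp2 transcripts 15.0% also occur in Pnp, and 5.62% of those in Pnp occur in Pnp2. Reads from these stretches could be split between the paralogs, so the level of Pnp2 is uncertain.

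Ppp1r3e, a subunit that brings protein phosphatase 1 to glycogen, was at 2.38, 1.80 and 2.25 TPM in the R7-I libraries, 2.14, 1.54 and 1.68 TPM in R7-II and 13.0, 12.3 and 13.2 TPM in R7-III. R7-III was far above R7-I and R7-II, which overlapped. The difference was 2.14 between R7-III and R7-I. R7-II lay -2.32 ± 0.11 from R7-III and -0.17 ± 0.11 from R7-I, and the second was not called. With quantile normalization Ppp1r3e was also called lower than in R7-I, by -0.53 (limma, adjusted p = 0.00153). Abhd4, a lipase of N-acyl phospholipids, was at 1.27, 1.99 and 1.64 TPM in the R7-I libraries, 2.24, 3.27 and 2.14 TPM in R7-II and 3.87, 4.19 and 3.86 TPM in R7-III. The clones did not overlap, with R7-I lowest, R7-II between and R7-III highest. R7-II lay 0.43 ± 0.14 above R7-I, which was called with the replicate number as a block (limma, adjusted p = 0.0091) and not without it (limma, adjusted p = 0.0193). Its call against R7-III (limma, adjusted p = 0.00893) was lost without R7-I replicate 3, R7-II replicate 1 or 3 or any R7-III library, with an adjusted p from 0.0136 to 0.0339, and with a pseudocount of 0.1, no filter, no trend and only the clones compared.

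Mdp1, a magnesium-dependent phosphatase, was at 40.0, 42.6 and 45.1 TPM in the R7-I libraries, 54.5, 54.6 and 55.9 TPM in R7-II and 44.4, 43.2 and 41.1 TPM in R7-III. R7-II was above the other 6 libraries, by 0.36 ± 0.05 over R7-I and 0.35 ± 0.05 over R7-III (limma, adjusted p = 7.01e-05 and 9.54e-05). Thtpa, which splits thiamine triphosphate, averaged 10.1 ± 0.325 TPM in R7-I, 12.8 ± 1.28 in R7-II and 10.7 ± 0.241 in R7-III. Dhrs4, a carbonyl reductase, averaged 24.8 ± 0.84, 29.8 ± 0.648 and 26.8 ± 0.926 TPM. Both were called higher in R7-II against R7-I (limma, adjusted p = 0.00244 and 0.000621), and both calls were lost with either scaling. Without R7-I replicate 1 Thtpa was also not called against R7-I (limma, adjusted p = 0.0119), and without R7-II replicate 1 it passed against R7-III (limma, adjusted p = 0.00418). Gmpr2, a GMP reductase, averaged 52.0 ± 1.44, 54.7 ± 1.52 and 50.4 ± 0.439 TPM and was not called.

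Transport and membrane genes were the largest group, with 11 tested. Dad1, a subunit of the oligosaccharyltransferase in the endoplasmic reticulum and the member nearest to the array, was at 445, 455 and 441 TPM in the R7-I libraries, 448, 448 and 442 TPM in R7-II and 448, 490.1 and 499 TPM in R7-III. All 3 clones overlapped, and R7-II was called in neither comparison with TPM. It was called lower with median-of-ratios scaling, by -0.19 and -0.23 against R7-I and R7-III, and against R7-III without R7-III replicate 1, by -0.15 (limma, adjusted p = 0.00141). Oxa1l, which inserts proteins into the inner mitochondrial membrane, was at 56.4, 57.9 and 57.1 TPM in the R7-I libraries, 56.5, 58.3 and 56.9 TPM in R7-II and 51.6, 50.8 and 54.3 TPM in R7-III. R7-III was below both other clones, which overlapped. Its call in R7-II against R7-III (limma, adjusted p = 0.00903) was lost with either scaling and without any library other than R7-III replicate 3, with an adjusted p from 0.0129 to 0.0438. That call was also lost with the replicate number as a block, no trend and only the clones compared (limma, adjusted p = 0.0178, 0.015 and 0.0219). With median-of-ratios scaling Oxa1l was called lower than in R7-I, by -0.18 (limma, adjusted p = 0.00166), where the difference with TPM was 0.00.

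Tmem260, an enzyme that adds mannose to receptor domains, was at 3.67, 3.90 and 3.52 TPM in the R7-I libraries, 6.13, 5.31 and 5.20 TPM in R7-II and 7.99, 8.24 and 9.11 TPM in R7-III. The clones stood in the order R7-I, R7-II, R7-III with no overlap, and the difference was 1.01 between R7-III and R7-I. R7-II lay 0.48 ± 0.08 above R7-I and -0.53 ± 0.08 from R7-III, and with quantile normalization the first was 0.11 and not called (limma, adjusted p = 0.248).

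Ipo4, an importin that carries histones into the nucleus, was at 182, 188 and 184 TPM in the R7-I libraries, 158, 156 and 157 TPM in R7-II and 182, 183 and 182 TPM in R7-III. R7-II was below the other 6 libraries, by differences of -0.23 ± 0.03 from R7-I and -0.22 ± 0.03 from R7-III (limma, adjusted p = 1.87e-05 and 3.01e-05). Rab2b, a small GTPase of vesicle traffic, was at 13.1, 13.3 and 13.3 TPM in the R7-I libraries, 20.4, 17.5 and 16.9 TPM in R7-II and 10.4, 11.4 and 13.1 TPM in R7-III. R7-II was highest without overlap, by 0.43 ± 0.09 and 0.61 ± 0.09 against R7-I and R7-III (limma, adjusted p = 0.00133 and 0.000134). Tmem55b, a phosphoinositide phosphatase of lysosomes now named Pip4p1, was at 20.5, 20.2 and 20.4 TPM in the R7-I libraries, 25.7, 24.9 and 26.8 TPM in R7-II and 18.2, 18.8 and 20.2 TPM in R7-III. It too was highest in every R7-II library, by 0.33 ± 0.05 and 0.42 ± 0.05 against R7-I and R7-III (limma, adjusted p = 0.000251 and 4.54e-05).

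Rabggta, a subunit of the enzyme that attaches lipid anchors to Rab proteins, averaged 43.8 ± 1.17 TPM in R7-I, 50.6 ± 0.995 in R7-II and 41.6 ± 1.42 in R7-III. Ap1g2, a subunit of a clathrin adaptor, averaged 44.3 ± 0.422, 50.6 ± 2.27 and 47.6 ± 1.89 TPM. Its call against R7-I (limma, adjusted p = 0.003) was lost with either scaling and without R7-I replicate 2 or R7-II replicate 1 (limma, adjusted p = 0.0125 and 0.0101). Tm9sf1, a membrane protein of the nonaspanin family, averaged 49.1 ± 1.70, 51.1 ± 0.229 and 59.5 ± 2.58 TPM and was called lower in R7-II against R7-III (limma, adjusted p = 0.000951). Lrp10, a receptor of the LDL receptor family, averaged 168 ± 5.22, 177 ± 1.32 and 179 ± 7.85 TPM and was not called, though with median-of-ratios scaling it was called lower than in R7-III, by -0.15 (limma, adjusted p = 0.0026).

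The amino acid transporters Slc7a7 and Slc7a8 were both low. Slc7a7, which exchanges cationic amino acids, was at 0.49, 0.38 and 0.43 TPM in the R7-I libraries, 0.75, 0.24 and 1.04 TPM in R7-II and 0.81, 0.82 and 0.55 TPM in R7-III. R7-II overlapped both other clones and was not called. Slc7a8, a carrier of neutral amino acids, was at 0.21, 0.09 and 0.34 TPM in the R7-I libraries, 0.27, 0.1 and 0.46 TPM in R7-II and 0.13, 0.23 and 0.14 TPM in R7-III. It was not tested, and its 3 clones overlapped. Chmp4a, a subunit of the ESCRT machinery, had no row.

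Of the genes of the cytoskeleton, adhesion and matrix, 5 were tested. Haus4, a subunit of the augmin complex that adds microtubules to the mitotic spindle, was at 16.5, 19.1 and 15.2 TPM in the R7-I libraries, 12.4, 12.6 and 15.3 TPM in R7-II and 33.7, 32.6 and 33.2 TPM in R7-III. R7-III was far above both other clones, and R7-II and R7-I overlapped. The difference was 0.93 between R7-III and R7-I and -1.25 ± 0.09 between R7-II and R7-III. R7-II also differed from R7-I, by -0.31 ± 0.09, and by -0.49 with median-of-ratios scaling and -0.59 with quantile normalization.

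Myh7, the heavy chain of slow muscle and heart myosin, was at 1.36, 1.2 and 2.39 TPM in R7-I libraries, 2.44, 3.52 and 2.14 TPM in R7-II and 0.01, 0 and 0 TPM in R7-III, where the last 2 are listed at 0. R7-III was near 0, and R7-I and R7-II overlapped at low levels. R7-II lay 0.49 ± 0.18 above R7-I, which was not called, though without R7-I replicate 3 it was, by 0.68 (limma, adjusted p = 0.00561). Myh6, a neighbouring paralog named here after its values were seen, was too low to be tested, at 0.29, 0.13 and 0.45 TPM in R7-I libraries, 0.27, 0.64 and 0.4 TPM in R7-II and listed at 0 in every R7-III library. Of the stretches of 100 bases in Myh7 transcripts 7.71% also occur in Myh6, so reads could be split between them.

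Cdh24, a cadherin of cell adhesion, averaged 4.12 ± 0.271 TPM in R7-I, 5.59 ± 1.2 in R7-II and 5.43 ± 0.474 in R7-III. Ajuba, a LIM domain adaptor, averaged 0.637 ± 0.175, 0.637 ± 0.255 and 1.08 ± 0.0513 TPM. Mmp14, a membrane-bound matrix metalloproteinase, averaged 0.733 ± 0.131, 1.28 ± 0.651 and 1.33 ± 0.139 TPM. None of these 3 was called in R7-II by limma, and at an unadjusted p under 0.05 Cdh24 passed against R7-I and Ajuba against R7-III. With quantile normalization Ajuba was called lower than in R7-III, by -0.60 (limma, adjusted p = 0.00282). Arhgef40, a nucleotide exchange factor, and Efs, a docking protein, were not tested. Arhgef40 reached at most 0.37 TPM, in R7-II, and Efs was at 0.02 TPM in 1 R7-I library and listed at 0 in the other 8.

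The group of survival and other roles had 2 tested genes. Bcl2l2, which encodes the anti-apoptotic protein Bcl-w, was at 2.04, 1.90 and 2.15 TPM in the R7-I libraries, 2.49, 2.18 and 2.23 TPM in R7-II and 8.17, 6.57 and 7.44 TPM in R7-III. R7-III was above both other clones, and in TPM R7-II was just above R7-I. The difference was 1.47 between R7-III and R7-I and -1.34 ± 0.10 between R7-II and R7-III. R7-II lay 0.12 ± 0.10 above R7-I, which was not called, and the difference turned to -0.01 with median-of-ratios scaling and -0.22 with quantile normalization. Bcl2l2 lies 5.83 kb beyond Ppp1r3e, and both were high in the same clone, while Pabpn1, 3.28 kb beyond Bcl2l2, differed by -0.10 between R7-III and R7-I.

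Ndrg2, a gene of the family repressed by N-Myc, was at 2.27, 2.86 and 3.04 TPM in the R7-I libraries, 11.8, 6.99 and 8.96 TPM in R7-II and 3.86, 4.14 and 3.13 TPM in R7-III. R7-II was highest without overlap, and its own libraries spread widely. The differences were 1.44 ± 0.16 over R7-I and 1.10 ± 0.16 over R7-III (limma, adjusted p = 2.14e-05 and 0.000153), the largest of the members higher than in both clones. Nynrin, a protein with similarity to retroviral integrase, was not tested and was at 0.05, 0.03 and 0.08 TPM in R7-II, at 0.01 TPM in 1 R7-III library and listed at 0 in the other 5.

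**Figure D2:**
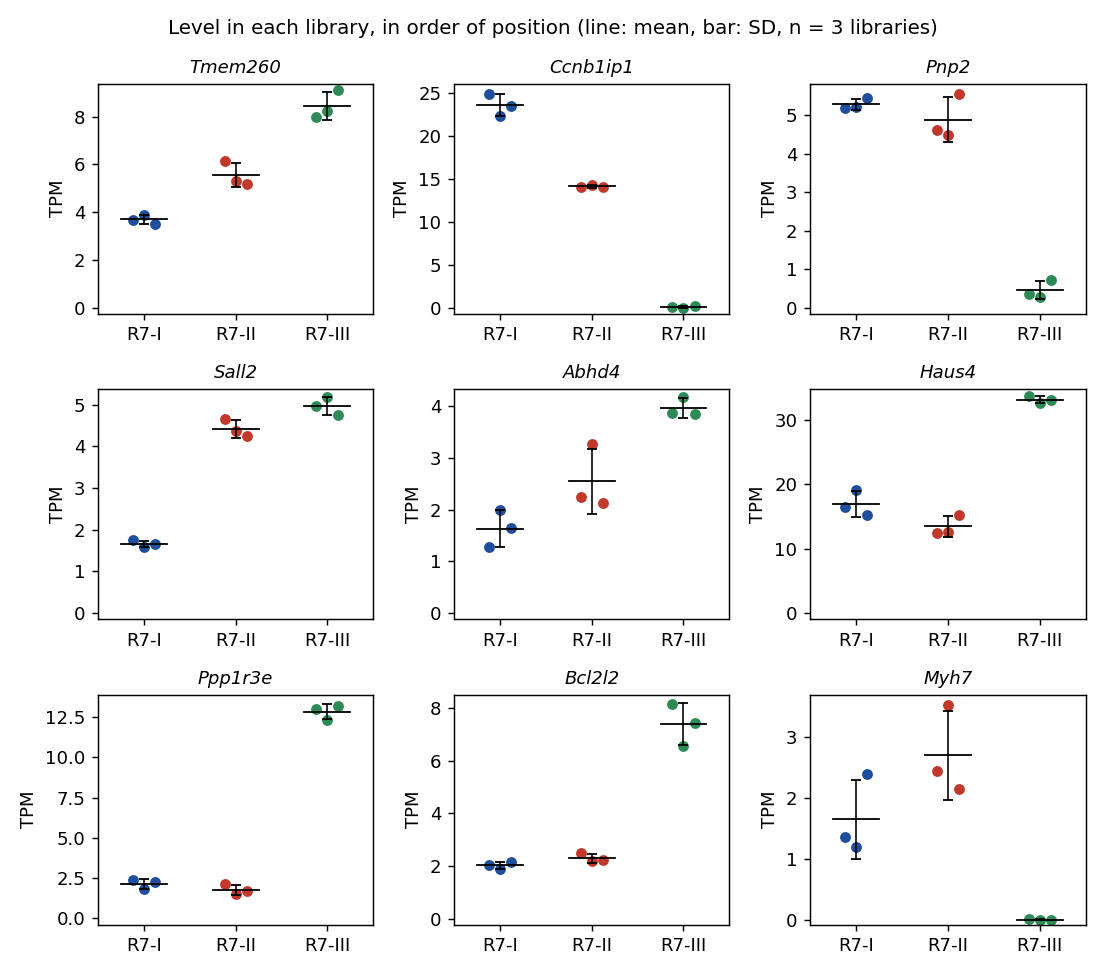
TPM in each library (points) of the 7 members past 2-fold between R7-III and R7-I and of Haus4 and Abhd4 just outside it, by clone, in order of position, with the mean as a line and the SD over 3 libraries as a bar. R7-II libraries overlap those of R7-I for Pnp2, Myh7, Ppp1r3e and Haus4, and Ccnb1ip1 runs from 23.6 TPM in R7-I to 14.1 in R7-II and 0.08 in R7-III.

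The members past the threshold or just outside it did not place R7-II in 1 way. Its libraries overlapped those of R7-I for Pnp2, Myh7, Ppp1r3e and Haus4. They lay between the other clones for Ccnb1ip1, Tmem260, Abhd4, Sall2 and Bcl2l2, close to R7-III for Sall2 and close to R7-I for Bcl2l2 in TPM. These comparisons share libraries with the contrast that the list was made on.

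Distance from the array was set beside the size of the differences, and nothing is read from it. Over the 47 tested neighbours, the Spearman rank correlation between the distance and the size of the difference was -0.02 for R7-III against R7-I and 0.14 for R7-II against the mean of both clones, as a description across genes, which are not independent. The first contrast was known when the list was made, and the second gives the distance of R7-II from a midpoint. No such correlation was taken for R7-II against either clone alone. The nearest member, Dad1, differed by 0.10 between R7-III and R7-I, while Abhd4, 0.199 kb beyond it, differed by 0.93 and Ccnb1ip1, 1.63 Mb away, by -4.51.

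The sides of the array are given beside the shares over all genes tested. In R7-II against R7-I 10 of the 18 neighbours on the low side were called higher (55.6%) and 7 of the 29 on the high side (24.1%), where 40.6% of all genes were, and 5 (27.8%) and 3 (10.3%) were called lower, where 15.5% were. Against R7-III 9 on the low side (50.0%) and 7 on the high side (24.1%) were called higher, where 35.6% of all genes were, and 3 (16.7%) and 8 (27.6%) were called lower, where 18.0% were. With median-of-ratios scaling 5 on the low side (27.8%) and 2 on the high side (6.9%) were higher against R7-I, where 25.2% of all genes were, and 6 (33.3%) and 9 (31.0%) were lower, where 29.4% were. With that scaling 6 (33.3%) and 4 (13.8%) were higher than in R7-III, where 2836 of the 11330 genes were, and 7 (38.9%) and 12 (41.4%) were lower, where 28.2% were. The other 56 tested genes within 5 Mb were called higher in R7-II against R7-I in 22 cases (39.3%) and the other 290 of chromosome 14 in 110 (37.9%).

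Libraries of 2 clones did not overlap for 31 of the 47 neighbours between R7-III and R7-I (66.0%, where 41.9% of all genes tested did not overlap), the contrast known when the list was made. Between R7-II and R7-I it was 33 (70.2%, where 71.2% of all genes did not overlap). Between R7-II and R7-III it was 35 (74.5%, where 70.6% did not overlap). With TPM, 13 of the 47 differed by less than 0.2 in all 3 comparisons (27.7%, where 27.8% of all genes did), among them Dad1, Hnrnpc, Parp2, Pabpn1 and Nedd8. With median-of-ratios scaling the count was 14 (29.8%, where 28.1% did) and none of these 5 was in it, and with quantile normalization it was 18 (38.3%, where 32.9% did) and all 5 were.

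Several neighbours overlap each other in the GENCODE annotation, and the reads carry no strand. Apex1 and Tmem55b share 877 exon bases on opposite strands there. Tox4 shares 933 with Mettl3 and 195 with Rab2b, Gmpr2 shares 1540 with Tinf2 and 184 with Nedd8, Thtpa shares 412 with Ap1g2, and Oxa1l shares 232 with Slc7a7. Supt16 shares 1057 with Rpgrip1, and Rnf31 shares 123 with Irf9 on the same strand. Bcl2l2 shares 594 and Pabpn1 651 exon bases with Gm20521, a transcript that joins both genes and has no row in the table. In RefSeq the spans of Apex1 and Tmem55b, of Gmpr2 and Nedd8 and of Rnf31 and Irf9 do not overlap. The spans of Tox4 with Mettl3 and Rab2b, Gmpr2 with Tinf2, Thtpa with Ap1g2, Oxa1l with Slc7a7 and Supt16 with Rpgrip1 do, and reads from exons shared there cannot be told apart.

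Promoters of the neighbours are described from the reference sequence. That sequence is the same for all 3 clones, so nothing about the differences between clones is read from it. RefSeq promoters in GRCm38.p6, from 250 bases before to 50 after a listed start, were matched for 49 neighbours, 66 promoters in all. A listed start need not be the outer end of the gene. Their median GC content was 59.7%, beside 52.7% over all 32851 promoters, and they held a median of 17.5 CpG sites, beside 7. All promoters include those of genes not tested here, while most neighbours were tested. No comparison with the promoters of tested genes alone was made, so nothing about the neighbours is read from these values. Short motifs were searched on both strands. CCAAT was in a promoter of 23 of the 49 neighbours and in 37.4% of all promoters, GGGCGG in 26 and 35.7%, CCGGAAG in 11 and 8.86%, CACGTG in 7 and 7.15%, and TGANTCA in 3 and 7.81%. A neighbour with several starts counts once, so its share is not on the same footing as the share of all promoters.

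The promoters shown are those of Ccnb1ip1, low in R7-III, and of Bcl2l2 and Haus4, high in R7-III, with capitals for matches to these motifs on either strand. They are the reference sequence of C57BL/6J at chr14:50795679-50795978 on the minus strand, chr14:54883175-54883474 on the plus strand and chr14:54554312-54554611 on the minus strand, and the sequence of the lines themselves was not analysed here.
Ccnb1ip1: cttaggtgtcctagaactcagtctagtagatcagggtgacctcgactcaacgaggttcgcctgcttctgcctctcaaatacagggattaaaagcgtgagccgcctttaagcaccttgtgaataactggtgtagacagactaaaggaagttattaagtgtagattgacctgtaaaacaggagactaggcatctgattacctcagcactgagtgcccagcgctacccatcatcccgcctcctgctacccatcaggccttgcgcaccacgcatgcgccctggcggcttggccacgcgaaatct
Bcl2l2: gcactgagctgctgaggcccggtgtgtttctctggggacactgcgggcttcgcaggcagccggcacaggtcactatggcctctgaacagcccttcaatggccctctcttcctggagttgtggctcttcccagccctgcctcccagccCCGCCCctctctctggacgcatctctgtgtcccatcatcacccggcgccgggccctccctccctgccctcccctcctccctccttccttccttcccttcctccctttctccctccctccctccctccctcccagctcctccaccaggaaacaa
Haus4: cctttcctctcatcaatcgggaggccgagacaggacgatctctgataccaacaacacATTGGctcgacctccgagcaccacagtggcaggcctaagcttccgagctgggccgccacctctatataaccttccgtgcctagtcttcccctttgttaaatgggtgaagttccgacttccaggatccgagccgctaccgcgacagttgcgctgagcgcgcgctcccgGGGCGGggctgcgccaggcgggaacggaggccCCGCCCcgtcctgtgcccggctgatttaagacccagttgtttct

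No motif searched was found in the Ccnb1ip1 window, which has a GC content of 52.0% and 13 CpG sites. The Bcl2l2 window, with a GC content of 65.3% and 9 CpG sites, holds GGGCGG on the minus strand. The Haus4 window, with a GC content of 61.3% and 25 CpG sites, holds both CCAAT and GGGCGG. In RefSeq the span of Haus4 ends at 54554989, outside its window. That of Bcl2l2 starts at 54883366, within its window but not at the start used. The motifs given for Haus4 and Bcl2l2 are those of the windows shown and not of the outer gene start. A match is only a run of letters, and the 3 windows shown share no motif of those searched. They are examples, and other members were searched in the same way. Windows of Myh7, which was also low in R7-III, hold CCAAT. Among members higher in R7-III than in R7-I, a Sall2 window holds CCAAT, a Tmem260 window CCGGAAG and an Abhd4 window both CCAAT and GGGCGG. No link between motif and clone is read from these windows.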

How the data were processed

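The authors used RSEM 1.2.11 both to align the non-stranded reads and to count them by RefSeq gene of mm10, and deposited TPM with 2 decimals. Which aligner RSEM called was not given in the sources used here. TPM keeps no depth, so no counting error can be given. The authors tested counts with DESeq2 1.8.1, and those counts were not analysed here.

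From the TPM values, log2(TPM + 1) was taken for the 11330 genes with a maximum above 1 TPM. The test was limma 3.58.1 (lmFit, eBayes with trend) under R 4.3.3 over all 9 libraries, without a replicate block, with p-values adjusted over all genes by Benjamini-Hochberg and a threshold of 0.01. The steps were tested on simulated data. Other work used pandas 2.3.3 in Python 3.11.15. R7-III against R7-I was not tested for the members, and the 2-fold rule stands on differences of means.

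Positions and the bounds of the locus came from RefSeq genes of GRCm38.p6, the same build as mm10. Exons, strands and transcripts came from GENCODE M21. Both describe C57BL/6J, while the lines are on a BALB/c background, and strain differences in sequence were not analysed here. Tmem55b was matched by its newer symbol Pip4p1.

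Values in all libraries were given for the members past 2-fold between R7-III and R7-I, up to 8 higher and 8 lower in R7-II than in both clones by the smaller of their differences, the 3 nearest the locus on each side, the 3 highest, the pairs Pnp with Pnp2 and Slc7a7 with Slc7a8, and other tested genes within 5 Mb past 2-fold. Parp2, Apex1, Supt16, Osgep and Myh6 were given so after their values were seen. The members and lists were chosen with earlier results of these data known.

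Alternatives were a pseudocount of 0.1 or 5, no filter, a maximum above 5 TPM, median-of-ratios scaling, quantile normalization, no trend, an adjusted p of 0.05, fits of only the clones compared, a replicate block and each library left out.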

Additional observations from a re-analysis of the deposited data

How the results depend on the processing

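Of 180 counts of neighbours under the alternatives 158 were within 1.5 times the value reported. Of the single values in R7-II 1571 kept their direction and their side of the threshold, 110 were no longer called, 44 became called and 47 changed direction, 40 of them not called with or without the alternative and up to 0.2163 in size. The cause of these changes was not tested.

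Values in brackets are those of all genes in the same fit, here and in the ranges without 1 library and with the block. Median-of-ratios scaling moved the neighbours higher in R7-II against R7-I from 17 to 7 (40.6% to 25.2%) and those lower from 8 to 15 (15.5% to 29.4%). Against R7-III it moved those higher from 16 to 10 (4038 to 2836 of 11330 genes) and those lower from 11 to 19 (18.0% to 28.2%), and against the mean of both clones from 20 to 12 (41.8% to 27.7%) and from 10 to 16 (18.6% to 31.2%). Apart from both clones, higher went from 10 to 4 (31.9% to 20.5%) and lower from 5 to 12 (12.8% to 23.5%). Quantile normalization gave, for R7-I, 8 higher (22.6%) and 11 lower (26.6%), for R7-III 11 (24.4%) and 15 (25.1%), for the mean 12 (25.8%) and 11 (28.7%), and apart from both 6 (19.2%) and 7 (20.6%). Lower apart from both was 3 with no filter (8.4%), without the trend (11.4%) and with only the clones compared (1248 of 11330 genes). With a pseudocount of 5, 1 neighbour was more than 2-fold higher in R7-III than in R7-I (0.177%) and 1 lower (0.0706%), in place of 4 (0.962%) and 3 (0.282%).

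Direction changed with median-of-ratios scaling against R7-I for Mettl3 (-0.1005), Oxa1l (-0.1821), Lrp10 (-0.1144), Acin1 (-0.0258), Bcl2l2 (-0.006), Ngdn (-0.1676), Rnf31 (-0.0219), Tm9sf1 (-0.1256) and Gmpr2 (-0.1123) and against R7-III for Supt16 (-0.12), Oxa1l (-0.0014), Cdh24 (-0.0911), Pabpn1 (-0.1177), Ngdn (-0.0159), Ap1g2 (-0.046) and Gmpr2 (-0.0153). With quantile normalization it changed against R7-I for Tep1 (-0.0145), Mettl3 (-0.0346), Dad1 (0.0916), Oxa1l (-0.1358), Slc7a7 (-0.1375), Cdh24 (-0.0235), Homez (-0.0497), Bcl2l2 (-0.2163), Rnf31 (-0.0041), Tm9sf1 (-0.1168) and Gmpr2 (-0.0833) and against R7-III for Lrp10 (0.0227), Cdh24 (-0.1784), Ap1g2 (-0.0533), Dhrs4 (-0.016) and Gmpr2 (-0.0068). Without 1 library it changed against R7-I for Dad1 (-0.0132 to 0.0092), Oxa1l (-0.0098 to 0.0121), Ajuba (-0.0975 to 0.1258) and Ngdn (-0.0054 to 0.0496), and against R7-III for Supt16 (-0.0019 to 0.0326), Slc7a7 (-0.1445 to 0.1339), Mmp14 (-0.2849 to 0.1182), Lrp10 (-0.0333 to 0.0226), Cdh24 (-0.1223 to 0.0995) and Pabpn1 (-0.0048 to 0.0374).

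With each of the 9 libraries left out in turn, higher and lower counts ranged from 14 to 19 (34.8% to 41.3%) and 7 to 8 (13.2% to 15.1%) against R7-I, 13 to 16 (29.6% to 36.6%) and 9 to 11 (15.6% to 17.6%) against R7-III, 14 to 20 (36.4% to 41.7%) and 9 to 10 (16.8% to 17.6%) against the mean, and 9 to 11 (27.4% to 33.1%) and 3 to 4 (11.3% to 12.6%) apart from both clones. Between R7-III and R7-I they were 3 to 6 higher (0.919% to 1.09%) and 3 lower (0.265% to 0.327%).

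Libraries that share a replicate number did not deviate together, with r from -0.0449 to 0.0888, so the number is not taken as a pairing. With the number as a replicate block, lower apart from both clones was 3 (12.1%), since Haus4 and Hnrnpc were not called. Against R7-I the block gave 17 higher (38.4%) and 7 lower (14.6%) and against R7-III 15 (33.9%) and 10 (17.2%).

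TPM keeps no depth, so the precision of low values such as those of Myh7, Slc7a7 and Pnp2 is unknown.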
